A study of Mus musculus with 2 samples.

Results

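The 8 genes described here are the basal and stratification keratins Krt5, Krt14, Krt15 and Krt17, the cornified envelope genes Ivl and Sprr1a, and the uroplakins Upk1b and Upk3a. They were taken by symbol from the 32285 genes of the count matrices, and each symbol matched 1 row. Spatial transcriptomes (10x Genomics Visium, in which a grid of barcoded spots captures the RNA of the tissue lying on it) were available for 2 mouse kidney sections. The first came from a C57BL/6 mouse 7 days after unilateral ureteral obstruction, a surgical ligation of the ureter of 1 kidney, that was given SH045, an inhibitor of the cation channel TRPC6. The second came, per its labels, from a C57BL/6 mouse 7 days after the same operation that was given vehicle. The sources used here do not state the dose of SH045 or the age and sex of the mice. A spot can hold several cells of different types, and counts from it are counts of distinct captured RNA molecules (UMIs). With 1 section from 1 mouse per group no test between groups was possible, and the 95% intervals given here cover counting error only, not the spread between mice or sections.

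Keratins assemble into intermediate filaments as pairs of a type II and a type I chain. Krt5 (type II) and Krt14 (type I) form the pair of basal cells in stratified epithelia. The renal pelvis and ureter are lined by urothelium, a stratified epithelium in which basal cells express Krt5 and the luminal umbrella cells carry plaques of uroplakins. Involucrin (Ivl) and the small proline-rich proteins (Sprr) are cross-linked by transglutaminases under the membrane of squamous cells to form the cornified envelope. Sprr1a is also known as a gene induced by injury in several tissues, among them peripheral nerve. By RefSeq on GRCm38.p6, the assembly of the mm10 build, the type I genes Krt14 (ENSMUSG00000045545, chr11:100203162-100207510), Krt15 (ENSMUSG00000054146, chr11:100131759-100135949) and Krt17 (ENSMUSG00000035557, chr11:100256215-100261029) lie together on chromosome 11. The type II gene Krt5 (ENSMUSG00000061527, chr15:101707069-101712905) lies on chromosome 15. Sprr1a (ENSMUSG00000050359, chr3:92483954-92485881) and Ivl (ENSMUSG00000049128, chr3:92570899-92573790) lie on chromosome 3. The uroplakin genes are Upk1b (ENSMUSG00000049436, chr16:38773182-38800203) and Upk3a (ENSMUSG00000022435, chr15:85017141-85022560).

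Ivl and Sprr1a lie in the epidermal differentiation complex, a cluster of genes for the outer layers of the epidermis. Sequence before the start of the gene was given in RefSeq for 5 of the 8 genes (Krt5, Krt14, Ivl, Sprr1a and Upk3a, assembly GRCm38.p6). Of 3 motifs searched on both strands in the 250 bases before the start, the AP-1 motif TGANTCA had 2 matches in Sprr1a and 1 in Ivl. Its first base lay 146 and 116 bases before the start in Sprr1a, and 116 bases before it in Ivl. The starts are those of the sequence entries. For Ivl that start lies inside the gene as annotated, so its match is nearer to the annotated start. Krt5, Krt14 and Upk3a held no match, where the entry for Krt14 lies inside the gene as annotated. Among 32851 mouse promoters of the same length, 6.75% held at least 1 match and 0.338% held 2 or more. TATAAA was found in Sprr1a and in Ivl and in 12.4% of all promoters. In Ivl this match lies inside the gene as annotated, in bases not printed below. The AP-2 motif GCCNNNGGC was in none of the 5 and in 13.7% of all. No match overlapped another. A match describes these letters and is no evidence that a factor binds there. The sequences of Sprr1a (chr3:92485882-92486131, minus strand) and Ivl (chr3:92573791-92573985, minus strand) are shown because both genes hold the motif, and that of Krt5 (chr15:101712906-101713155, minus strand) because it does not. Capitals mark the AP-1 matches, and for Ivl only the 195 bases outside the annotated gene are printed.
Sprr1a: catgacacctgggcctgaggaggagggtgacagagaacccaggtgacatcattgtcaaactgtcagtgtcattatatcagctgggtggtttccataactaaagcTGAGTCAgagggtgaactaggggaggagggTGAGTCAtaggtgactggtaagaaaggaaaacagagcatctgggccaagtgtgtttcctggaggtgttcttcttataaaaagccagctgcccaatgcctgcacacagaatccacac
Ivl: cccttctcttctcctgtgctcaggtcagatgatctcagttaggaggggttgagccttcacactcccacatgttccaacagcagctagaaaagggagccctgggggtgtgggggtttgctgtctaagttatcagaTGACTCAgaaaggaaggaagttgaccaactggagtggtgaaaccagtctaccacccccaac
Krt5: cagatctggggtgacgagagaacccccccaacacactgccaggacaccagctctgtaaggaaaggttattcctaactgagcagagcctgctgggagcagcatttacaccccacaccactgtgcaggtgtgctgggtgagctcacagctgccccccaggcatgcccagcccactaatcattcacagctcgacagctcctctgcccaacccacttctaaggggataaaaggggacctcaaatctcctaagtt

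The libraries differed in depth and in the tissue they held. The SH045 section had 790 spots and 22388623 UMIs in all, a median of 27733 for each spot. The section labelled Vehicle had 676 spots and 4327613 UMIs, a median of 4932.5, and the table of its spot positions flagged 1210 spots of the grid as tissue, of which 570 were among these 676. The flag and the matrix thus differ in outline, and the map of this section shows the spots of the matrix. The spot barcodes of the 2 matrices overlapped by 335, as both slides use the same set of barcodes. Levels are in CPM, the counts of a gene scaled to a total of 1000000 UMIs and not divided by gene length, since the assay counts 3′ ends. The level of the injury gene Havcr1 was 992 CPM in the SH045 section, against 1.62 CPM in the section labelled Vehicle. A list of 8 genes of injured tubule summed to 26748 CPM in the SH045 section, against 1405 CPM in the section labelled Vehicle, although both labels give the same operation. Kidney markers were present in both, with 8 proximal tubule genes at 14055 CPM in the SH045 section, against 51057 CPM in the section labelled Vehicle, and 4 podocyte genes at 167 and 183 CPM. The inner medullary urea transporter Slc14a2 had 1850 UMIs in the SH045 section, against none in the section labelled Vehicle. The state of injury, how much inner kidney and pelvis each section held, and the treatment cannot be told apart in any difference between the sections, and the operation on the mouse of the section labelled Vehicle rests on its label alone. Nor can fewer cells of a type be told apart from less RNA per cell.

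All 4 keratins were found in the SH045 section. None was found in the section labelled Vehicle. Krt14 had 164 UMIs in the SH045 section, a level of 7.33 CPM (95% Poisson interval 6.25 to 8.54), and no UMI in the section labelled Vehicle. At the SH045 level the shallower section would have held 31.7 UMIs of Krt14. Its partner Krt5 had 79 UMIs (3.53 CPM, 2.79 to 4.40) in the SH045 section, against none in the section labelled Vehicle. Krt17, a keratin of hair follicles that is induced in wounded and stressed epithelia, had 146 UMIs (6.52 CPM) in the SH045 section, against none in the section labelled Vehicle. Krt15, a basal keratin also used as a marker of hair follicle bulge cells, had 58 UMIs (2.59 CPM) in the SH045 section, against none in the section labelled Vehicle. A section with no UMI was given a floor of 3 counts, which is 0.693 CPM in the section labelled Vehicle. Against that floor Krt14 was at least 10.6-fold higher in the SH045 section, Krt17 at least 9.41-fold, Krt5 at least 5.09-fold and Krt15 at least 3.74-fold. The floor is a convention and no confidence limit, and the lower 95% limits of the ratio were 8.50 for Krt14, 7.55 for Krt17, 4.04 for Krt5 and 2.94 for Krt15. The 4 keratins together had 447 UMIs in the SH045 section, against 0 in the section labelled Vehicle.

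Of the cornified envelope genes, Sprr1a was the member with the most UMIs. It had 2887 UMIs (129 CPM, 124 to 134) in the SH045 section, against 2 UMIs (0.462 CPM, 0.056 to 1.67) in the section labelled Vehicle, a ratio of 279 with a 95% interval of 77.2 to 2305. Sprr1a supplied 81.7% of the UMIs of the 8 genes in the SH045 section, so sums over the 8 mostly follow it. Ivl, the classical early component of the envelope, had 139 UMIs (6.21 CPM, 5.22 to 7.33) in the SH045 section, against none in the section labelled Vehicle. Against the floor of 3 counts Ivl was at least 8.96-fold higher, and the lower 95% limit of its ratio was 7.19. The uroplakins were rarer. Upk1b, a tetraspanin of the urothelial plaque, had 48 UMIs (2.14 CPM) in the SH045 section, against none in the section labelled Vehicle. It was at least 3.09-fold higher against the floor, with a lower 95% limit of 2.42. Upk3a, a plaque protein of umbrella cells, had 12 UMIs (0.536 CPM) in the SH045 section, against none in the section labelled Vehicle. At that level the section labelled Vehicle would have held 2.32 UMIs of Upk3a, so no difference was detectable at its depth.

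**Figure D1:**
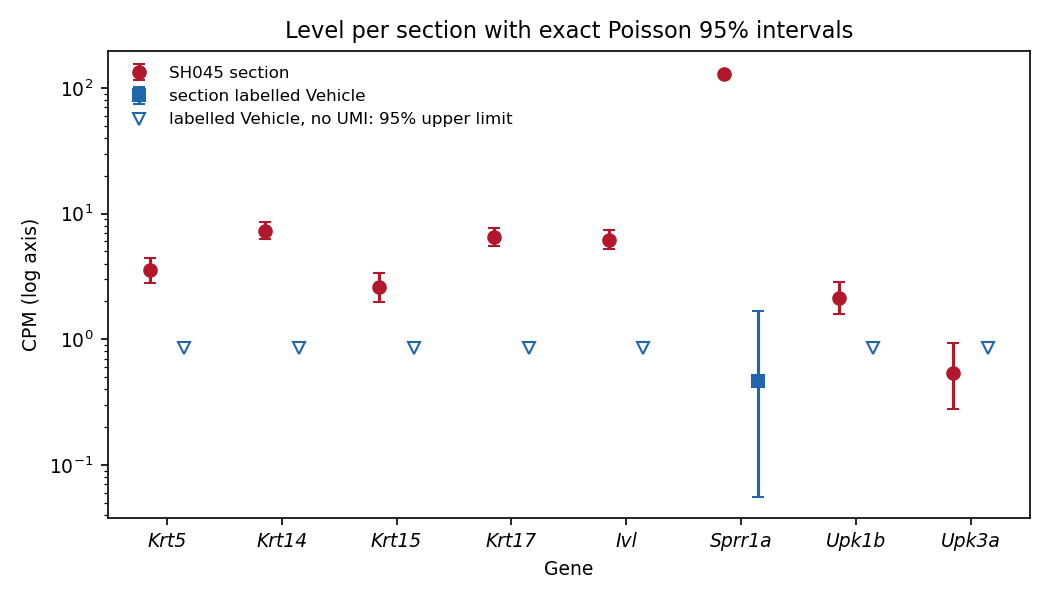
Level of the 8 genes per section in CPM on a log axis, with exact Poisson 95% intervals; open triangles are the 95% upper limit of 0.852 CPM where the section labelled Vehicle held no UMI. The SH045 level lies above that limit for 6 of the 7 genes with no UMI there, and for Upk3a it lies below.

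A gene was called higher or lower at a ratio of 1.5 or more if it reached 10 CPM in either section. Sprr1a alone reached that level, and it was called higher. Of all 10463 genes at that level, 53.2% were called higher and 12.0% lower, and their median log2 ratio was 0.63, so being higher in the SH045 section was common. With no minimum level and the floor of 3 counts, 7 of the 8 genes were called higher against 43.7% of 19311 genes with a UMI in either section, and none lower, against 13.6%. All but Sprr1a of the 8 had no UMI in the section labelled Vehicle. Among 4083 genes with 12 to 164 UMIs in the SH045 section, the range of these 7 genes, 16.8% had no UMI in the section labelled Vehicle.

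The 8 genes were unevenly spread within the SH045 section. Cut by position into 4 blocks of like spot number, the section had its highest level of each of the 8 genes in the same block. Krt14 had 0.862, 0.976, 6.12 and 27.2 CPM in the 4 blocks, and Krt5 had 0, 0.163, 3.22 and 13.7 CPM. Upk1b followed the keratins, with 0, 0.163, 1.13 and 9.45 CPM. Sprr1a varied least, with 117, 100, 119 and 201 CPM. Both Sprr1a UMIs of the section labelled Vehicle lay in 1 of its 4 blocks.

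Spot by spot, the 7 genes other than Sprr1a were rare. Of the spots with a UMI, from 60.9% for Krt17 to 75.6% for Krt5 touched another with the same gene, and 2 of the 11 Upk3a spots did. Such a share grows with the number of spots that hold the gene. The share to be had from that number alone was not computed, so these values are no measure of clustering. Krt17 was seen in 92 of the 790 SH045 spots, Ivl in 74, Krt14 in 71, Krt5 in 41, Krt15 in 34, Upk1b in 29 and Upk3a in 11. In most of these spots the gene had 1 UMI, as for Krt14 in 47 spots and Krt17 in 73. Their 646 UMIs lay in 217 spots, and 27 spots with at least 5 of these UMIs held 388 of them (60.1%) while holding 2.90% of all UMIs of the section. Sprr1a was seen in 615 SH045 spots (77.8%), with a median of 3 and a highest value of 70 UMIs where it was seen. In the section labelled Vehicle it was seen in 2 of 676 spots with 1 UMI each, and the other 7 genes in none. After each spot was thinned to 2500 UMIs, which left out 2 SH045 spots and 115 spots of the section labelled Vehicle, 25.0% of 788 SH045 spots (exact 95% interval 22.0 to 28.2) and 0.178% of 561 spots of the section labelled Vehicle held a UMI of any of the 8 genes. For the 7 genes without Sprr1a the thinned share was 5.08% of SH045 spots. It was 0 of 561 spots of the section labelled Vehicle, with an exact 95% upper limit of 0.655%.

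**Figure D2:**
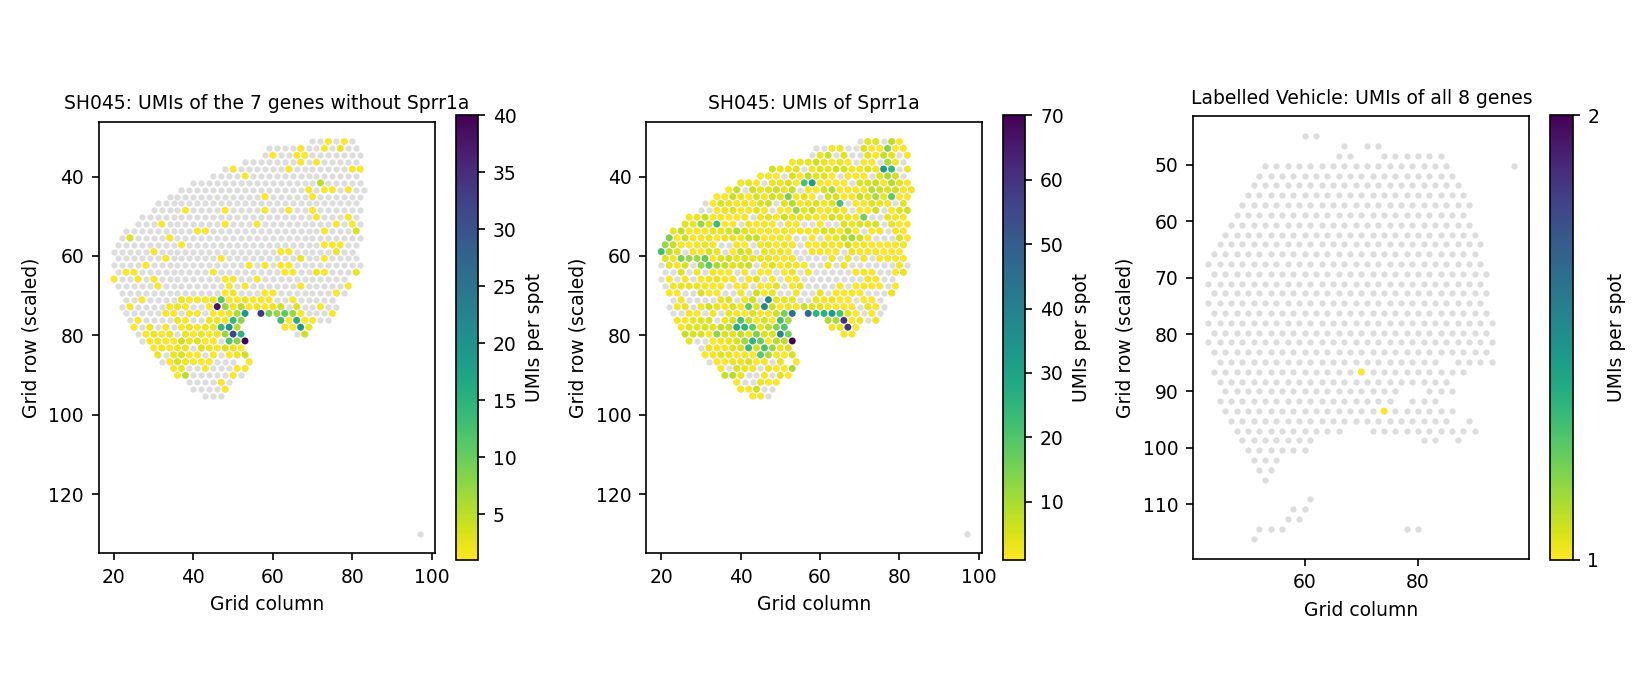
UMIs per spot on the slide grid (grid column and scaled grid row) for the 7 genes without Sprr1a and for Sprr1a in the SH045 section, and for all 8 genes in the section labelled Vehicle; grey spots hold none. Most spots with many UMIs of the 7 genes lie near an indentation of the SH045 outline. However, 1 of the strongest, with 16 UMIs of Krt17, lies at step 5, counted with the outline as step 1. Sprr1a is high in these spots and present over most of the section, and 2 spots of the section labelled Vehicle hold 1 UMI each.

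The strongest spots held most of the genes at once. The spot of highest Ivl and Sprr1a had 3 UMIs of Krt5, 13 of Krt14, 5 of Krt15, 1 of Krt17, 16 of Ivl, 70 of Sprr1a and 2 of Upk1b among 28964 UMIs. The spot of highest Krt5 and Krt15 had 9 of Krt5, 10 of Krt14, 6 of Krt15, 1 of Krt17, 5 of Ivl, 47 of Sprr1a and 3 of Upk1b among 18570. The spot of highest Krt17 had 16 of it, beside 3 of Krt5, 8 of Krt14, 3 of Krt15, 7 of Ivl, 39 of Sprr1a and 1 of Upk1b. The 5 spots with the most UMIs of Krt5 and Krt14 together lay within 6 grid steps of each other and held 24.6% of the UMIs of the 7 genes without Sprr1a. Krt5 and Krt14 chose these spots and are among the 7 genes, so the choice itself raises that share. Without those 5 spots Krt14 still had 112 UMIs in this section and Krt5 had 56. With no minimum level 7 of the 8 genes were then called higher. With all spots 43.7% of 19311 genes were called higher at no minimum, and that share was not computed without the 5 spots.

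To describe the other genes around the basal pair, 22 SH045 spots with at least 3 UMIs of Krt5 and Krt14 together were taken as Krt5 and Krt14 spots. They formed 4 patches, the largest of 12 spots. Counted with the outline of the section as step 1, they lay at a median step of 2, against 4 for all 790 spots. Krt5 and Krt14 chose these spots, so only the other 6 genes are results there. Ivl had 134 CPM in them, and 26.9, 7.39, 5.22 and 1.92 CPM at 1, 2, 3 to 4 and over 4 steps. Krt15 had 65.1, 15.4, 4.43, 1.16 and 0.428 CPM over the same distances, and Krt17 had 112, 15.4, 10.3, 6.38 and 3.15 CPM. Upk1b fell off in the same way, with 65.1, 6.41, 1.48, 1.16 and 0.374 CPM. Sprr1a had 1179 CPM in the Krt5 and Krt14 spots and 197, 220, 142 and 93.1 CPM at 1, 2, 3 to 4 and over 4 steps. The level of every one of these 5 genes was highest in the Krt5 and Krt14 spots, and only Sprr1a kept a level near 100 CPM far from them.

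The ratio of the Krt5 and Krt14 spots over the 631 spots more than 4 steps away differed widely between genes. It was 174 for Upk1b (75.6 to 466), 152 for Krt15 (68.9 to 381) and 69.7 for Ivl (45.9 to 107). It was 46.1 for Upk3a (9.92 to 232), from 5 UMIs in the 22 spots and 4 in the far spots. The ratio was 35.6 for Krt17 (24.3 to 52.2) and 12.7 for Sprr1a (11.5 to 13.9). All 5 of these genes with at least 40 UMIs reached 10-fold, against 0.322% of 13343 genes with as many. The interval lay above 1 for all 5 as well, against 13.0% of those 13343 genes, and also for Upk3a, which had 12 UMIs in the section. The ratios depend on the cut. With 1 UMI of Krt5 and Krt14 as the cut, which gave 93 spots and left 73 far spots, they were 35.4 for Upk1b, 40.1 for Krt15, 12.7 for Ivl, 13.8 for Krt17 and 3.24 for Sprr1a. At the cut of 3 UMIs the far spots held 83.5% of the UMIs of the section. They held 60.3% of the UMIs of Sprr1a, 40.4% of those of Krt17 and 25.9% of those of Ivl. For Upk1b and Krt15 the far spots held 14.6% and 13.8%. The median depth was 23123.5 UMIs in the Krt5 and Krt14 spots and 27830.5 in the rest.

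**Figure D3:**
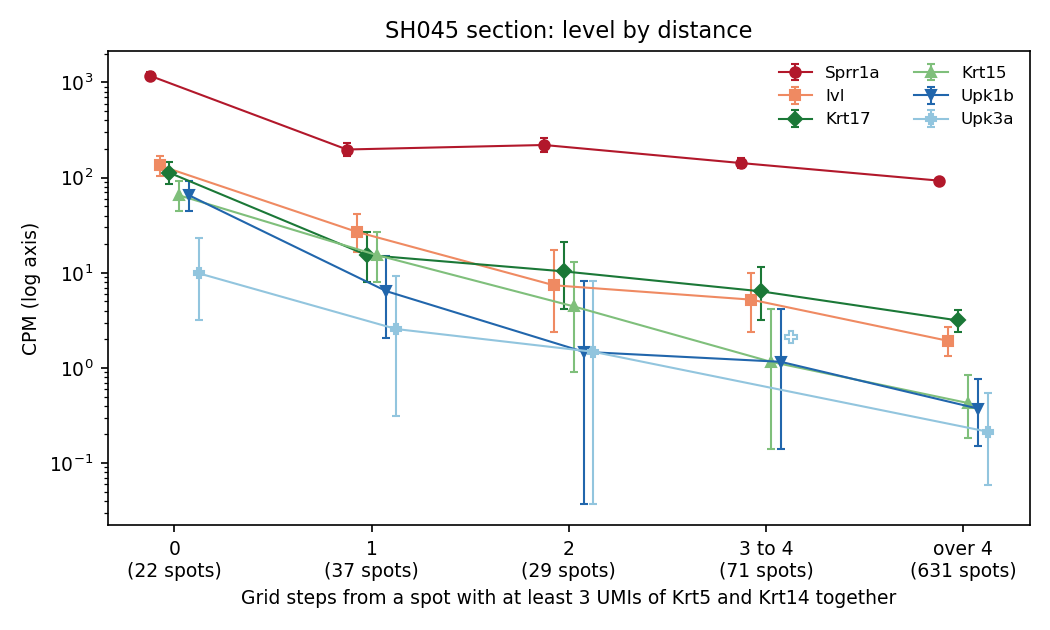
Level in CPM (log axis) of 6 genes in SH045 spots grouped by grid steps from the nearest spot with at least 3 UMIs of Krt5 and Krt14 together; bars are exact Poisson 95% intervals and the open symbol is the 95% upper limit of a group with no UMI. All 6 genes are highest at 0 steps, and Sprr1a stays at 93.1 CPM beyond 4 steps where the others are at 3.15 CPM or less.

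Spots were also grouped into 9 regions by their expression, with the 8 genes and all genes of the stratified, cornified and urothelial lists left out of the grouping. The smallest region held 14 spots with 1.37% of the UMIs of the section, and it had the highest summed level of the 8 genes. Of its 14 spots, 12 were among the 22 Krt5 and Krt14 spots described above. Its values thus come largely from the same spots and add no separate support. Its 5 leading genes by ratio over the rest of the section were the calpain Capn13, Upk1b, mesothelin (Msln), the serine protease Prss27 and the platelet chemokine Ppbp. It held 22.5% of the UMIs of the 8 genes and 41.0% of those of the 7 without Sprr1a. Krt14 had 257 CPM there and 3.85 CPM elsewhere in the section, a ratio of 66.7, and Krt5 had 117 and 1.95 CPM, a ratio of 60.1. The ratio was 100.4 for Upk1b, 51.4 for Ivl, 50.6 for Krt15, 22.6 for Krt17 and 16.1 for Sprr1a. The region was picked for its level of these genes, so the ratios describe it and nothing is read from their number. All 7 genes with at least 40 UMIs were at least 2-fold and 5-fold higher there. Of 13343 genes with as many UMIs, 8.24% were at least 2-fold and 1.01% at least 5-fold higher. The 7 genes helped to pick the region and most of the 13343 did not, so no enrichment is read from these shares. The region next in level had 76 spots led by Bcat1, Serpina1b and Slc4a11, with 240 CPM of Sprr1a, 17.6 CPM of Krt14 and 8.57 CPM of Krt5. A region of 41 spots led by the podocyte gene Nphs1 had the lowest Sprr1a level of the 9, at 56.2 CPM (42.3 to 73.1). Krt5 and Upk1b had no UMI in a region of 91 spots led by Fst and Aqp2 or in a region of 55 spots led by Slc22a7, where Sprr1a had 104 and 102 CPM.

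The genes were often seen in the same spots. Of the 41 SH045 spots with Krt5, 19 (46.3%) also held Krt14, against 6.94% of spots without Krt5. Of the 29 spots with Upk1b, 18 (62.1%) held Krt14 and 17 (58.6%) held Ivl, against 6.96% and 7.49% of spots without Upk1b. Of the 92 spots with Krt17, 23.9% held Krt14 and 17.4% held Ivl, against 7.02% and 8.31% of spots without Krt17. All 29 Upk1b spots and all 11 Upk3a spots held Sprr1a, which 77.0% and 77.5% of the spots without them also held. In spots thinned to 2500 UMIs the counts were small: Krt14 was in 3 of 6 Krt5 spots, Ivl in 0 of 8 Krt17 spots, Sprr1a in 2 of 2 Upk1b spots and in 0 of 2 Upk3a spots. Co-detection is therefore described at full depth, where the depth of a spot can add to it. The level of Sprr1a went with the number of the other 7 genes seen in a spot. It was 96.8 CPM in the 573 spots with none, 115 CPM in 153 spots with 1 and 123 CPM in 35 spots with 2 of them. It was 567 CPM in 6 spots with 3 and 1833 CPM in 6 spots with 6 of them. Across the 790 spots, which share a library and differ in depth, Pearson correlations of log-normalised counts were 0.67 for Krt5 with Krt14, 0.66 for Krt14 with Ivl and 0.65 for Krt14 with Upk1b. They were 0.30 for Krt17 with Sprr1a and 0.32 for Krt17 with Ivl.

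**Figure D4:**
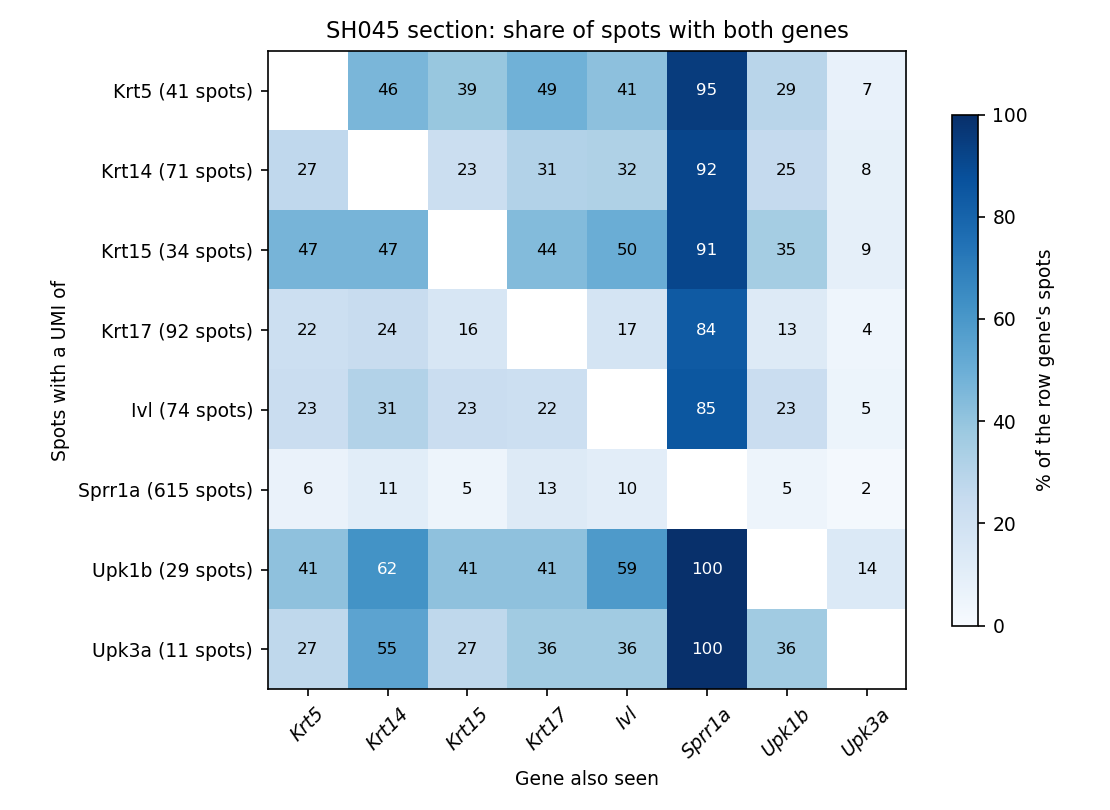
Share of the SH045 spots with a UMI of the row gene that also hold a UMI of the column gene, in percent, unthinned; the number of spots of each row gene is given beside it. Sprr1a is seen in 83.7% or more of the spots of every other gene, and the keratin, Ivl and Upk1b spots overlap in part.

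Genes of the same epithelia from fixed lists were read in the same spots. Of all 18839 genes with a UMI in the Krt5 and Krt14 spots or the far spots, 10.0% had a ratio with an interval above 1 and 6.32% below it. Of 18 other genes of stratified basal epithelium with a UMI, 11 had a ratio of Krt5 and Krt14 spots over far spots with an interval above 1, 1 was lower and 6 had intervals that included 1. The desmosomal plaque gene Pkp1 had 29.6 CPM in the Krt5 and Krt14 spots and 0.160 CPM in the far spots. The laminin-332 chain gene Lamb3 had 98.6 CPM in the Krt5 and Krt14 spots and 8.18 CPM in the far spots, and the cell cycle regulator Sfn had 503 and 119 CPM. Trp63, the master regulator of stratified epithelia, had 2 UMIs (3.94 CPM) in the Krt5 and Krt14 spots and 15 (0.802 CPM) in the far spots. Its ratio of 4.92 had an interval of 0.546 to 21.1, which included 1. The lower gene was the water channel Aqp3, with 0 UMIs in the Krt5 and Krt14 spots and 308 in the far spots. Aqp3 is also on the list of collecting duct principal cells.

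Of 13 other cornified envelope genes with a UMI, 5 were higher in the Krt5 and Krt14 spots and none lower. Sprr2f had 335 CPM there and 9.89 CPM in the far spots, and Sprr2a3 had 33.5 and 0.428 CPM. Transglutaminase 1 (Tgm1), which cross-links the envelope, had 29.6 CPM in the Krt5 and Krt14 spots and 24.6 CPM in the far spots, with an interval that included 1. Of 12 urothelial genes 8 were higher and none lower. Psca had 144 CPM in the Krt5 and Krt14 spots and 3.10 CPM in the far spots, Upk1a had 73.0 and 2.30 CPM, and Upk2 had 25.6 and 0.321 CPM. All 8 genes of simple epithelium were also higher, among them Krt19 with 901 CPM in the Krt5 and Krt14 spots and 51.8 CPM in the far spots. Of the epidermis and hair list, Krt1 had 3 UMIs and Krt2, Krt71 and Krt25 none in the whole SH045 section, while Krt10, the partner of Krt1 in the epidermis, had 294 and Calml3 had 106. Krt10 had 7.89 CPM in the Krt5 and Krt14 spots and 13.7 CPM in the far spots, and Calml3 had 1.97 and 5.24 CPM, both with intervals that included 1. Of the mesothelial list, Msln had 98.6 CPM in the Krt5 and Krt14 spots and 0.695 CPM in the far spots and Upk3b had 27.6 and 2.83 CPM. Wt1 had 9.86 and 9.30 CPM. Lrrn4 had only 2 UMIs in the section, none of them in the Krt5 and Krt14 spots, which is too few to compare. Muc16 had none in the section. Upk3b is also on the urothelial list and was counted among its higher genes. The part of mesothelial RNA in the levels of the 8 genes was not tested.

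Between the sections the same lists were read with the minimum of 10 CPM. Of 19 stratified basal genes 10 reached 10 CPM, of which 7 were called higher and 1 lower in the SH045 section. The list summed to 563 CPM in the SH045 section, against 261 CPM in the section labelled Vehicle. Its genes of high SH045 level included Sfn (136 CPM in the SH045 section, 10.9 CPM in the section labelled Vehicle) and Itga6 (98.7 and 57.5 CPM). Aqp3, which is also on the principal cell list, was the gene called lower. It had 14.7 CPM in the SH045 section, against 83.2 CPM in the section labelled Vehicle. Of 22 cornified envelope genes 5 reached 10 CPM and 4 were called higher. They were Tgm1 (25.3 CPM in the SH045 section, 3.24 CPM in the section labelled Vehicle), Sprr2f (493 UMIs and none), the transcription factor Klf4 (21.6 and 5.08 CPM) and the plakin Ppl (16.4 and 2.31 CPM). No UMI in either section was found for 9 of the 22 genes, among them the filaggrin gene Flg and Sprr3. Of 12 urothelial genes 4 reached 10 CPM. The transcription factor Elf3 (94.8 CPM in the SH045 section, 8.32 CPM in the section labelled Vehicle), Krt20 (923 UMIs and none) and Gata3 (20.4 and 9.01 CPM) were called higher and Fmo5 (20.6 and 51.5 CPM) lower. Krt20 is a gene of umbrella cells that is also on the injured tubule list. It had 49.3 CPM in the Krt5 and Krt14 spots and 37.5 CPM in the far spots, with an interval that included 1. Of 8 simple epithelial genes 7 were called higher, with Krt8 at 611 CPM in the SH045 section, against 123 CPM in the section labelled Vehicle, and Epcam at 220 and 51.1 CPM. Krt7, at 329 and 234 CPM, stayed under the 1.5-fold limit. Krt10, the 1 gene of the epidermis and hair list to reach 10 CPM, was called lower (13.1 CPM in the SH045 section, 27.7 CPM in the section labelled Vehicle), and so was Wt1 of the mesothelial list (9.11 and 14.6 CPM). The shares of all genes called at this level, 53.2% higher and 12.0% lower, apply to these counts too.

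Likeness across the 790 SH045 spots was measured as the Pearson correlation with each of 13219 genes seen in at least 5% of spots. The genes most like the mean of the 8 were Fxyd3, a regulator of the sodium pump (0.70), Msln (0.68), Psca (0.67), Ppbp (0.63) and Sprr2f (0.62). Upk1a (0.58), Krt19 (0.55), the annexin gene Anxa8 (0.55), Lamb3 (0.53) and the protease gene Ctse (0.50) came after them. For Krt14 alone the closest were Ppbp and Fxyd3 (0.68 each), and for Krt5 Fxyd3 (0.61) and Msln (0.57). For Ivl the closest was Sprr2f (0.55), and for Krt17 it was Msln (0.44). For Sprr1a over all spots the closest were Msln (0.49), Fxyd3 (0.48), Psca (0.44), Sprr2f (0.43) and Upk1a (0.42).

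Far from the Krt5 and Krt14 spots Sprr1a was read on its own, in a comparison chosen after the maps were seen. In the 631 far spots Sprr1a was seen in 484 (76.7%), with a median of 2 and a highest value of 33 UMIs, and the other 7 genes together had 159 UMIs there. Over those spots the correlation of Sprr1a was -0.01 with Msln, 0.01 with Fxyd3, -0.03 with Psca, 0.04 with Sprr2f and -0.02 with Upk1a. The far spots were chosen away from Krt5 and Krt14, and they held only 13 UMIs of Msln, 43 of Upk1a and 58 of Psca. Counts this sparse limit a correlation to low values, so no loss of likeness is read from them. The highest correlations there were with the small heat shock protein gene Hspb1 (0.34), the injury gene Havcr1 (0.33), osteopontin (Spp1, 0.32), the stress transcription factor Atf3 (0.30) and angiotensinogen (Agt, 0.28). These are weak correlations in sparse counts and are given as a description. Havcr1 was picked from these correlations, so its groups restate the same spots and add no support. With the far spots in 4 equal groups by Havcr1 level, from low to high, Sprr1a had 48.7, 89.1, 78.4 and 141 CPM. The other 7 genes together had 10.0, 6.98, 8.85 and 8.30 CPM in the same groups, with overlapping intervals. The median depth of those groups was 23529, 27830.5, 30001 and 36065 UMIs, so depth moved with Havcr1, and its part in the Sprr1a values was not tested.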

How the data were processed

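The authors deposited for each section a matrix of UMI counts per gene and spot, not normalized, made with Space Ranger 2.0.1 per the file headers, on the mm10 build per the submitters' processing notes. How reads were aligned, and to which gene annotation, is not given in the sources used here. Reads shared between near-identical keratin or Sprr copies could be split by that counting, so the Sprr2a genes are uncertain. Sections were grouped by the treatment in the labels, and all spots of each matrix were used.

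Counts were summed per section and given as CPM with exact Poisson 95% intervals. Ratios have exact conditional binomial intervals, and the log2 ratio uses CPM plus 1. Regions of the SH045 section were found with scanpy 1.11.5 and leidenalg 0.10.2 (2000 variable genes, 20 principal components, 15 neighbours, resolution 0.6). Correlations used the log of 1 plus counts per 10000 UMIs. TMM factors, an alternative scaling, came from edgeR 4.0.16. No doublet caller was run, since a spot is not a cell. The calculations were tested on simulated data.

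The 8 genes and the lists were chosen with earlier results of these data known. Genes are named by rule: the 8 genes, the 5 most alike each of them seen in at least 5% of SH045 spots, the 10 most alike their mean, the 3 measured genes of highest SH045 level in each epithelial list and any called lower (the rule covers the lists of other cell types too, given here as sums or counts, and some genes it names are not reported here), and the 5 leading genes of the region of highest summed level. Further list genes (Calml3, Pkp1, Lamb3, Trp63, Sprr2a3, Tgm1, Upk2, Ppl, Gata3, Flg, Sprr3, Upk3b and the epidermal and mesothelial markers at or near 0), the leading genes of other regions, Slc14a2, and Hspb1, Havcr1, Spp1, Atf3 and Agt far from the Krt5 and Krt14 spots were named after their values were seen. Gene positions and promoters are from RefSeq, assembly GRCm38.p6.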

Additional observations from a re-analysis of the deposited data

How the results depend on the processing

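No paired analysis was possible because each group has 1 section. Of 40 alternatives 20 left a value or count within its limits, 20 moved it and 0 reversed it. The 1 gene called higher became 4 at a minimum of 5 CPM, 7 with no minimum and 0 without Sprr1a. Of all genes, 53.2% were called higher at 10 CPM and 43.7% with no minimum. That share was not computed at the other settings, so the counts of called genes there cannot be set against it. The summed log2 ratio of 6.76 was 8.13 with a pseudocount of 0.1 CPM and 4.90 without Sprr1a, and TMM and median-of-ratios factors gave 6.36 and 6.33. The share of SH045 spots with any of the 8 genes, 25.0% at 2500 UMIs, was 11.9% at 1000 UMIs and 82.0% unthinned, and that of the section labelled Vehicle, 0.178%, was 0 at 1000 UMIs. The share of the UMIs of the 8 genes in the region of highest level, 22.5%, was 39.6% in 92 spots at resolution 0.4, 27.9% in 67 spots at resolution 1.0 and 25.1% in 17 spots with all genes used. With 1 UMI of Krt5 and Krt14 as the cut, which gave 93 spots and left 73 far spots, the ratio over far spots was 3.24 for Sprr1a, 12.7 for Ivl, 40.1 for Krt15, 13.8 for Krt17 and 35.4 for Upk1b. With 10 UMIs, which gave 5 spots, it was 17.6 for Sprr1a and 52.3 for Krt17. Of the 10 genes most like the mean of the 8, 4 were shared with Spearman correlation and 5 with thinned spots. With no minimum, 6 genes were called higher when the SH045 counts were thinned to the total of the section labelled Vehicle, where Upk1b had 3 UMIs, and 6 without the region of highest level. The causes of these shifts were not tested.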

Other observations

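Markers of other cell types also differed between the 22 SH045 spots with at least 3 UMIs of Krt5 and Krt14 and the 631 spots more than 4 steps away. Of 8 fibroblast and matrix genes, 7 had a ratio with an interval above 1 and none below. Type I collagen Col1a1 had 1888 CPM in the Krt5 and Krt14 spots and 493 CPM in the far spots, and fibronectin (Fn1) had 2012 and 570 CPM. Of 7 smooth muscle genes 6 were higher and none lower, among them enteric smooth muscle actin Actg2 with 27.6 CPM in the Krt5 and Krt14 spots and 3.32 CPM in the far spots. All 8 proximal tubule genes, all 4 thick ascending limb genes and all 6 genes of collecting duct principal cells were lower. The last of these lists includes Aqp3, which was also counted with the stratified basal genes. The phosphate transporter Slc34a1 had 170 CPM in the Krt5 and Krt14 spots and 662 CPM in the far spots, Umod had 1191 and 3442 CPM, and the water channel Aqp2 had 29.6 and 188 CPM. Of all 18839 genes with a UMI in either set of spots, 10.0% had an interval above 1 and 6.32% below it. Of the 8 injured tubule genes 2 were higher (Lcn2 and Clu) and 4 lower, with Havcr1 at 846 CPM in the Krt5 and Krt14 spots and 975 CPM in the far spots. These genes were named after their values were seen, and the mix of cell types in a spot was not estimated.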
